A study of Mus musculus with 6 samples.

Results

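AP-1 is a family of DNA-binding dimers, and 10 mouse genes for its subunits were followed here in leukemia cell lines with and without Cdk6. The 10 were chosen by gene symbol: Jun, Junb and Jund, which encode the JUN proteins; Fos, Fosb and Fosl2 of the FOS family; and Batf, Batf3, Atf3 and Maff. All 10 had a row among the 25965 rows of the count table, and 9 of them were among the 10896 rows that passed the filter on low counts and were tested. Batf3 was at 0 counts in all 6 libraries and did not pass.

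AP-1 proteins pair through a leucine zipper and bind short DNA elements. JUN proteins can pair with each other or with a FOS, BATF or ATF protein, whereas FOS proteins need a partner such as a JUN protein. Many FOS and JUN genes are immediate early genes, which are switched on by growth factor, stress and antigen receptor signals through the ERK, JNK and p38 kinases. BCR-ABL, the fusion kinase of Philadelphia chromosome positive leukemia, signals through several of the same routes.

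RNA was sequenced from 6 mouse BCR-ABL positive cell lines, 3 labelled Cdk6 wild type (WT1 to WT3) and 3 labelled Cdk6 knock out (KO1 to KO3). Per the labels' protocols, cells were electroporated either with the control plasmid pSpCas9(BB)-2A-GFP(px458), which encodes Cas9 and GFP, or with pSpCas9(BB)-2A-GFP(px458)-hCDK6del, which adds guide RNAs against CDK6, and GFP positive cells were sorted. They were then grown out as single-cell clones, and loss of the protein was checked by Western blotting. All lines of both groups carry BCR-ABL and grew in the same medium, with no further treatment. The labels do not say whether the libraries of a group came from separate starting cultures, so p-values measure the spread between these libraries, part of which may be technical or clonal.

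Total counts ran from 17859519 to 24108563 per library. Levels below are CPM, the counts of a gene relative to the total of its library, scaled by edgeR's TMM factors, and 3 counts correspond to 0.125 to 0.165 CPM. Cdk6 RNA averaged 47.1 ± 8.19 CPM for WT against 51.8 ± 20.2 CPM in KO (SD, n = 3 each; log2 fold change 0.14, exact permutation p = 0.9, smallest possible 0.1), so its RNA level does not check the labels. The library KO2 stood apart from the others: it lay at 112 on the first principal component, which held 67.9% of the variance, WT2 lay at 12.6, and the other 4 lay between -38.4 and -28.3. All 12 B lineage markers were detected, with a summed level of 4579 to 4777 CPM in WT and 4133 to 5152 CPM in KO. Of 10 T cell markers 5 were at 0 throughout (Cd3e, Cd4, Cd8a, Cd8b1 and Thy1), and of 12 myeloid markers 4 (Elane, Adgre1 under its older symbol Emr1, S100a8 and S100a9). Summed T cell markers were 66.1 to 73.4 CPM in WT and 31.1 to 81.3 CPM in KO, and summed myeloid markers were 33.1 to 48.7 and 20.0 to 45.9 CPM. Erythroid and fibroblast markers summed to at most 0.819 and 0.549 CPM. In bulk RNA, fewer cells with a transcript and less of it per cell cannot be told apart.

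No AP-1 gene passed the test between genotypes. By edgeR's quasi-likelihood test with Benjamini-Hochberg adjustment over all genes, 0 of the 9 tested members passed an adjusted p of 0.05, against a background of 0% of all tested genes. DESeq2 called 0 of the 9, against 1.94% of genes. At an unadjusted edgeR p under 0.05 there was 1 member, Fos, against 9.45% of genes. Fos was also the 1 member whose 3 KO libraries all lay below the 3 WT libraries, against 11% of tested genes (8.68% when levels were scaled by library totals alone). For 0 members did all KO libraries lie above all WT libraries, against 8.53% of genes (10.6% by totals alone). The fitted fold change was below 0 for 5 members and above 0 for 4, with a median of -0.06 on the log2 scale, beside 0.01 over all tested genes.

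**Figure D1:**
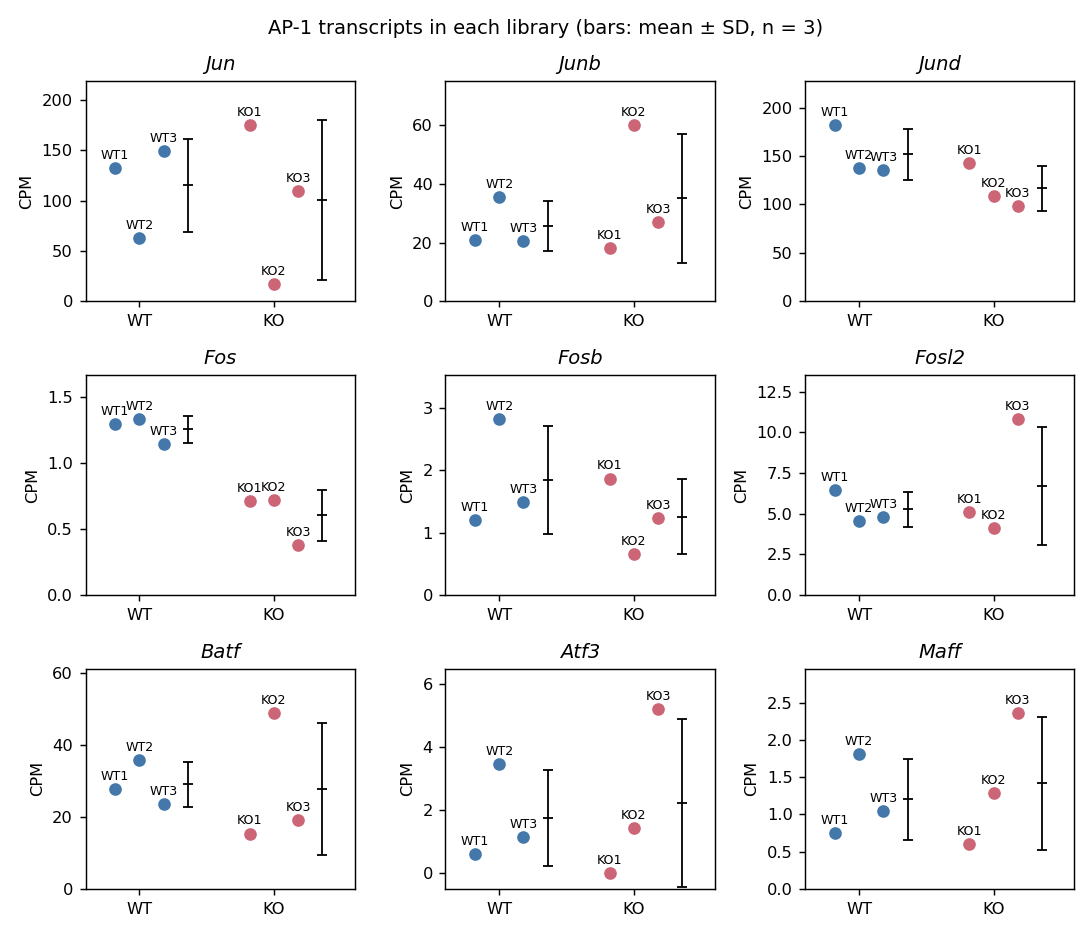
Level of each of the 9 tested AP-1 genes in the 6 libraries, in TMM-scaled CPM on a separate axis per gene, with the mean and SD of each genotype. Jun was lowest in KO2 (17.5 CPM), Junb and Batf were highest there, and the 3 KO points of Fos all lie below its WT points.

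**Figure D2:**
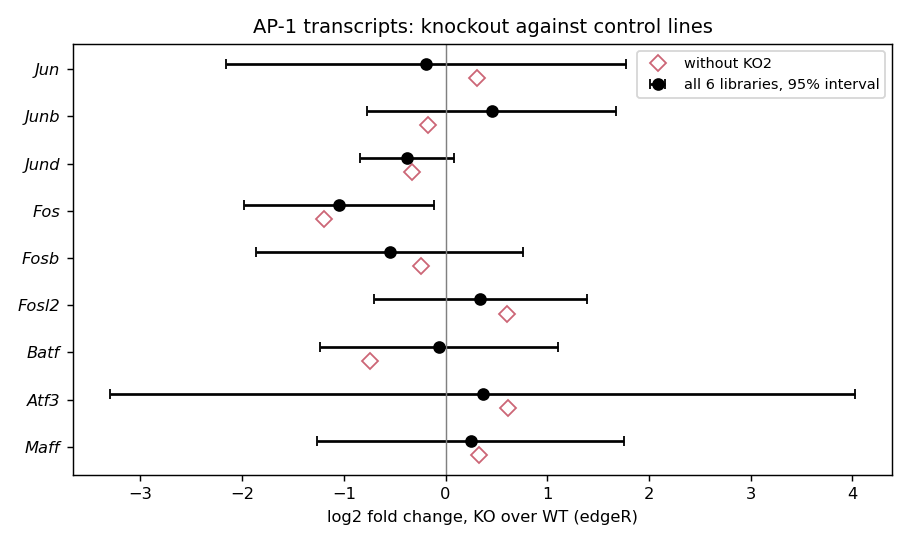
Fitted log2 fold change, KO over WT, of each tested AP-1 gene with its 95% interval from edgeR. The interval of Fos, from -1.99 to -0.12, is the only one of the 9 that leaves out 0, and Atf3 has the widest, from -3.30 to 4.03.

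The JUN genes supplied most AP-1 RNA in these lines, and the balance of Jun to Junb differed between lines of the same genotype. Jun, a single-exon gene at chr4:95049036-95052222 on the minus strand, encodes the subunit with strong transactivating activity. Junb, a single-exon gene at chr8:84976909-84978748 on the minus strand, encodes a subunit that can also restrain Jun-driven transcription. Jund, a single-exon gene at chr8:70697739-70700616 on the plus strand, encodes a subunit that many resting cells already express.

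Jun and Junb stood in opposite order across the lines, so the 250 bases upstream of each start (RefSeq, GRCm38.p6, written 5′ to 3′ on the gene's own strand) are shown together, Jun from chr4:95052223-95052472 and Junb from chr8:84978749-84978998, with capitals for a match to TGACATCA.
Jun: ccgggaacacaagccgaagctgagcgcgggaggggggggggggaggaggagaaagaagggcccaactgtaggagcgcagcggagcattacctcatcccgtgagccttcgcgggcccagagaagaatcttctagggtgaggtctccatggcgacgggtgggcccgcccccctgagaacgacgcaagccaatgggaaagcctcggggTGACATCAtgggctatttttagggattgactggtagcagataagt
Junb: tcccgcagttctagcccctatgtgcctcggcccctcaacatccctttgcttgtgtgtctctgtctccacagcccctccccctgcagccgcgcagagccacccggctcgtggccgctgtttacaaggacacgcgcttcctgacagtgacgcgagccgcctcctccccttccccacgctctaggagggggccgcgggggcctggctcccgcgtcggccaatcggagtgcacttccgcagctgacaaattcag
Windows of this length upstream of 32851 transcription start sites were searched on both strands for the AP-1 element TGACTCA, the cAMP response element TGACGTCA, the Jun promoter variant TGACATCA, the STAT element TTCNNNGAA and the CArG box that SRF binds. The Jun window held TGACATCA once, from 45 to 38 bases before the start, as did 2.93% of all windows. No searched motif was matched in the Junb window, of which 66.4% of bases were G or C, against 61.2% for Jun. The search took exact matches inside the windows only, so it does not cover other variants or sites farther upstream.

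Jun stood at 132, 63.1 and 149.6 CPM across WT1 to WT3, and across KO1 to KO3 it stood at 175, 17.5 and 109.8 CPM. The highest and the lowest line, KO1 and KO2, were both knockouts and differed 9.99-fold, and the WT range lay inside the KO range. KO2 was 3.6-fold below the next lowest line, WT2, and 6.69% of tested genes likewise had a KO2 level under 1/2 of that in every other library. The WT mean was 115 ± 45.7 and the KO mean 101 ± 79.1 CPM (SD, n = 3 each). KO over WT this was a log2 fold change of -0.19 ± 0.79 (SE), with an edgeR adjusted p of 0.957, and it was 0.31 without KO2. Within 5 Mb of Jun, 12 other genes averaging 5 CPM or more had a median log2 ratio of -0.27 in KO2 to the mean of WT1, WT3, KO1 and KO3, where Jun itself had -2.98. The same median was 0.04 over 62 genes around Junb, which itself had 1.45, and 0.06 over 43 genes around Batf, which had 1.17.

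Junb was at 20.7, 35.6 and 20.5 CPM across WT1 to WT3 and at 18.1, 60.0 and 27.0 CPM across KO1 to KO3. KO2 was the highest, 1.69-fold above the next, WT2, and KO1 was the lowest. The WT mean was 25.6 ± 8.62 and the KO mean 35.0 ± 22.1 CPM, with a log2 fold change of 0.45 ± 0.49 (SE), and the edgeR adjusted p was 0.797. Without KO2 the log2 fold change was -0.17. Junb overlaps Prdx2 on the opposite strand, and the strand setting of the counting is not given, so reads in the shared stretch could not be assigned with certainty. Prdx2 had 3252 to 4681 counts, and it was lowest in KO2, where Junb was highest.

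By their point values, the 6 lines stood in exactly opposite order for Jun and Junb. From the lowest Jun to the highest, they were KO2, WT2, KO3, WT1, WT3 and KO1, and Junb ran from its highest to its lowest level along the same order. Pearson's r between their log2 levels was -0.99 over the 6 libraries (exact permutation p = 0.00139, adjusted over 36 pairs of members 0.05), and Spearman's rho was -1 (p = 0.00278, adjusted 0.05). The permutations here and below take the 6 libraries as independent, which the labels do not settle. Deviations of WT2 and KO2 from their group means correlated at 0.64. Without WT2 and KO2, the 2 lines farthest from the median, r was -0.96. An exactly reversed order of the libraries relative to Jun was found for 0.441% of the tested genes. Junb in WT1, WT3 and KO1 had exact 95% binomial intervals of 19.0 to 22.6, 18.6 to 22.6 and 16.2 to 20.1 CPM. These overlap, so the order of these lines for Junb, and with it the exact rho, is not resolved at this depth. Per kb of transcript, the Jun to Junb ratio was 3.62, 1.01 and 4.13 across WT1 to WT3 and 5.50, 0.17 and 2.30 across KO1 to KO3, so KO2 had more Junb than Jun on this scale, which uses the longest transcript. With the median transcript length WT2 did too, with 30.9 CPM per kb of Junb and 19.8 of Jun.

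**Figure D3:**
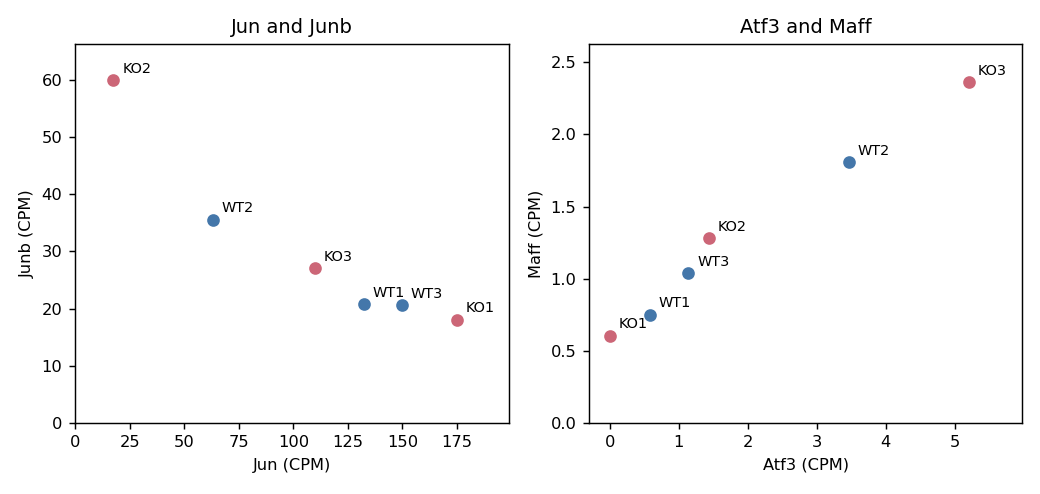
Junb against Jun (left) and Maff against Atf3 (right), each point 1 library (WT blue, KO red), on linear axes in TMM-scaled CPM. Junb is highest where Jun is lowest, Maff is highest where Atf3 is highest, and in both plots WT and KO points are mixed along the order.

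Jund was at 182, 138 and 135 CPM across WT1 to WT3 and at 143, 109 and 98.3 CPM across KO1 to KO3. KO2 and KO3 lay below all WT lines, and KO1 lay above WT2 and WT3, so the groups overlapped. Each KO line lay below the WT line of the same number. The means were 152 ± 26.3 and 117 ± 23.4 CPM, with a log2 fold change of -0.38 ± 0.19 (SE, 95% interval -0.84 to 0.08) and an edgeR adjusted p of 0.572. With the replicate number as a block Jund had -0.38 ± 0.07, an unadjusted p of 0.00465 and an adjusted p of 0.528, while the unadjusted p of Fos was 0.0502. Jund was then the 1 member under 0.05 in place of Fos, against 9.04% of genes. Jund varied less between lines than Jun or Junb, and it did not share their split of KO2 from the rest.

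The FOS genes were near the lower end of detection, with Fos and Fosb at about 1 CPM. Fos, at chr12:85473890-85477274 on the plus strand, encodes the classic serum-induced subunit. It was at 1.29, 1.33 and 1.14 CPM across WT1 to WT3, from 31, 25 and 23 counts. The KO lines had 0.714, 0.717 and 0.378 CPM, from 13, 14 and 8 counts. Each KO value lay below each WT value, and the means were 1.25 ± 0.102 and 0.603 ± 0.195 CPM. That is a log2 fold change of -1.05 ± 0.38 (SE) with a 95% interval of -1.99 to -0.12, an unadjusted edgeR p of 0.0333 and an adjusted p of 0.507. Counting error alone gave exact 95% binomial intervals of 0.721 to 1.71 CPM in WT3 and 0.392 to 1.20 CPM in KO2, which overlap, so the separation of these neighbours is not resolved at this depth.

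Since Fos is the 1 member whose genotypes did not overlap, its upstream window, chr12:85473640-85473889 on the plus strand (RefSeq, GRCm38.p6), is shown in full.
Fos: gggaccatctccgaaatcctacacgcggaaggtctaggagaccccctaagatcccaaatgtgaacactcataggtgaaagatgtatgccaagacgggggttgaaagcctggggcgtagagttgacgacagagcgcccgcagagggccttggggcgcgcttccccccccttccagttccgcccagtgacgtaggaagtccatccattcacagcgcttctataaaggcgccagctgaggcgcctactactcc
It held no match to any of the 5 searched motifs, and 58.4% of its bases were G or C. All letters are therefore in lower case. Only exact matches inside this window were sought. Other variants of the motifs, and sites farther upstream, were not tested, so a lack of such sites at Fos is not shown.

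Fosb, at chr7:19302696-19310118 on the minus strand, encodes a further inducible FOS protein. Its levels were 1.21, 2.82 and 1.48 CPM across WT1 to WT3 and 1.87, 0.666 and 1.23 CPM across KO1 to KO3, from 13 to 53 counts. The groups overlapped, with KO2 lowest and WT2 highest. Its WT and KO means were 1.84 ± 0.862 and 1.25 ± 0.601 CPM, and the log2 fold change was -0.55 ± 0.53 (SE), with an edgeR adjusted p of 0.769.

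Fosl2, at chr5:32136472-32157840 on the plus strand, encodes FRA2, a FOS protein without the strong transactivation domain of Fos. It was at 6.47, 4.53 and 4.80 CPM across WT1 to WT3 and at 5.11, 4.10 and 10.8 CPM across KO1 to KO3. KO3 alone was high, 1.67-fold above WT1, and the other 5 lines lay together. From means of 5.26 ± 1.05 and 6.68 ± 3.63 CPM the log2 fold change was 0.34 ± 0.42 (SE), with an edgeR adjusted p of 0.822, and it was -0.19 without KO3. Per kb of the longest transcript Fosl2 exceeded Fos in all 6 lines, with ratios of 1.10 to 1.61 in WT and 1.84, 2.31 and 9.23 in KO2, KO1 and KO3. With the median transcript length Fos was instead the higher in WT2 (1.63 against 1.30 CPM per kb) and WT3 (1.40 against 1.38), so the order of the pair in WT depends on the length used.

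Batf differed from WT in the same direction in 2 knockout lines and in the opposite direction in the other. Batf, at chr12:85686720-85709087 on the plus strand, encodes a small subunit that pairs with JUN proteins and cooperates with IRF4 and IRF8 in lymphocytes. It was at 27.7, 35.7 and 23.6 CPM across WT1 to WT3, and at 15.4, 48.9 and 19.1 CPM across KO1 to KO3. KO1 and KO3 lay below every WT line and KO2 above every one. Fos and Batf were the 2 of 9 members with KO1 and KO3 both below all WT, against 21.9% of tested genes. Over all 6 lines, Batf had means of 29.0 ± 6.18 and 27.8 ± 18.4 CPM and a log2 fold change of -0.06 ± 0.47 (SE), with an edgeR adjusted p of 0.976.

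Without KO2 the log2 fold change of Batf was -0.74 ± 0.21 (SE), with an edgeR adjusted p of 0.208. DESeq2 on the same 5 libraries, a fit chosen after the data had been seen, gave -0.75 ± 0.25 and an adjusted p of 0.048, and Batf was then the 1 member called, against 5.95% of genes. With WT2 left out as well, the DESeq2 adjusted p was 0.210. Batf followed Junb and ran against Jun: r was 0.86 with Junb (exact permutation p = 0.0278, adjusted 0.25) and -0.88 with Jun (p = 0.0125, adjusted 0.15). Without WT2 and KO2 these became 0.13 and -0.36, so both relations rest on those 2 libraries. Summed plasma cell markers, led by Xbp1, were also highest in KO2, with 118 to 346 CPM in KO and 119 to 161 CPM in WT, as were summed NK cell markers, led by Klrb1c, with 16.0 to 82.6 and 17.7 to 26.3 CPM. Tnfrsf17 of the plasma cell list and Ncr1, Gzmb and Eomes of the NK cell list were at 0 in all lines, and the part of these genes in the Batf level was not tested.

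Batf3, at chr1:191098414-191108943 on the plus strand, encodes the relative of Batf known from dendritic cells. With 0 counts in every line, its level was below the 0.125 to 0.165 CPM that 3 counts represent.

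By their point values, Atf3 and Maff shared 1 order of the lines, and it was neither that of Jun nor that of the genotypes. Atf3, at chr1:191170296-191183333 on the minus strand, encodes a stress-induced subunit that often represses, and Maff, at chr15:79346621-79359078 on the plus strand, encodes a small MAF protein that lacks a transactivation domain. Their upstream windows (RefSeq, GRCm38.p6) are shown for that reason, Atf3 from chr1:191183334-191183583 on the minus strand and Maff from chr15:79347270-79347519 on the plus strand, the middle of its 3 listed starts, with capitals for a match to TGACGTCA.
Atf3: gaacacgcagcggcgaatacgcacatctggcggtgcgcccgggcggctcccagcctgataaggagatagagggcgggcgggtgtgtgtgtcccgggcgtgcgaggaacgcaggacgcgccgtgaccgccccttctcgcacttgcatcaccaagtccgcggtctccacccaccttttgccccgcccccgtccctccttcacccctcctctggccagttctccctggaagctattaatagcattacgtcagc
Maff: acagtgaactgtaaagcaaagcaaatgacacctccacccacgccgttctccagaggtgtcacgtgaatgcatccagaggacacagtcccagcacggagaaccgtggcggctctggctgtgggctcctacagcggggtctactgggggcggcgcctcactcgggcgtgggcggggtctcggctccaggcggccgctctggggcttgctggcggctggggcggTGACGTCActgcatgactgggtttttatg
Maff held TGACGTCA from 29 to 22 bases before this start, as did 1.55% of all windows, and TGACATCA from 45 to 38 bases before the last of its starts. No searched motif was matched in the Atf3 window. Among the other members, the Batf3 window held the STAT element once, as did 7.02% of all windows, and those of Fosb, Fosl2, Jund and Batf held no match. TGACTCA occurred in 4.46% of all windows and the CArG box in 1.47%, and in no member's window. Other variants of the motifs, and sites outside the windows, were not searched for any member.

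Atf3 was at 0.584, 3.46 and 1.14 CPM across WT1 to WT3, and at 0, 1.43 and 5.20 CPM across KO1 to KO3. The KO lines held both the lowest and the highest value: KO1 had 0 counts, below the 0.165 CPM of 3 counts, and KO3 had 110. The means were 1.73 ± 1.53 and 2.21 ± 2.69 CPM in WT and KO. This gave a log2 fold change of 0.37 ± 1.48 (SE) and a 95% interval of -3.30 to 4.03, with an edgeR adjusted p of 0.957.

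Maff was at 0.751, 1.81 and 1.04 CPM across WT1 to WT3 and at 0.604, 1.28 and 2.36 CPM across KO1 to KO3, from 11 to 50 counts. The order from KO1 through WT1, WT3, KO2 and WT2 to KO3 was that of Atf3. The means were 1.20 ± 0.548 and 1.42 ± 0.888 CPM, with a log2 fold change of 0.25 ± 0.61 (SE) and an edgeR adjusted p of 0.916. Between Atf3 and Maff rho was 1 (exact permutation p = 0.00278, adjusted over 36 pairs 0.05) and r was 0.94 (p = 0.00417, adjusted 0.075), and r was 0.99 without KO1 and KO3. The same order as that of Atf3 was found for 0.147% of tested genes. For Maff the binomial intervals of all neighbouring lines overlapped, such as 0.445 to 1.19 CPM in WT1 and 0.643 to 1.59 CPM in WT3. For Atf3 those of WT3, at 0.721 to 1.71 CPM, overlapped both those of WT1 (0.319 to 0.980) and those of KO2 (0.953 to 2.07). The Atf3 intervals of WT2 and KO3 also overlapped, at 2.67 to 4.41 and 4.27 to 6.27 CPM. The exact order is therefore not resolved at this depth. The ends of the order were apart, with Maff up to 1.08 CPM in KO1 and from 1.75 CPM in KO3.

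Line by line, a KO library was the highest for 6 of the 9 members, against 67.5% of tested genes, and the lowest for 9 of the 9, against 68.8%. Different knockout lines held these places. KO3 was the highest library for 3 members (Fosl2, Atf3 and Maff), against 22.9% of tested genes, and the lowest for 2 (Fos and Jund), against 22.6%. KO2 was the highest for 2 (Junb and Batf), against 31%, and the lowest for 3 (Jun, Fosb and Fosl2), against 33.6%. KO1 was the lowest for 4 (Junb, Batf, Atf3 and Maff), against 12.3%, and the highest for 1 (Jun), against 13.6%. These counts describe single lines and give no comparison of genotypes.

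Per kb of the longest annotated transcript, Jund RNA was the most abundant of the family. Its mean over the 6 lines was 80.4 CPM per kb (58.9 to 109), followed by Jun at 33.8 (5.49 to 54.9), Batf at 29.7 (16.1 to 51.2) and Junb at 16.8 (9.99 to 33.2). The length used for Jund was 1668 bases, from its 1 annotated transcript. With it, Jund exceeded Jun in all 6 lines and its range did not overlap that of Jun. That length is shorter than the RefSeq location of this single-exon gene, chr8:70697739-70700616. A longer Jund transcript would lower its level per kb, so its place above Jun and Batf depends on the length used. The ranges of Jun, Batf and Junb overlapped, with Jun above Batf in 4 of 6 lines and Batf above Junb in 6 of 6.

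The remaining 5 genes had means over the 6 lines more than 10-fold below that of Junb on this scale. In KO3 the gap was narrower for some, with Junb at 14.9, Atf3 at 2.62 and Fosl2 at 1.66 CPM per kb. Atf3 had a mean of 0.993 CPM per kb, Fosl2 0.913, Maff 0.668, Fos 0.441 and Fosb 0.409, and the ranges of all neighbours in this order overlapped. With the median length of a gene's annotated transcripts instead, Batf came to 38.2 CPM per kb, above Jun at 33.8, and Junb came to 26.4. Fosl2 then came to 1.72 and Fos to 1.14 CPM per kb, so the order of Batf and Jun, and that of the low genes, depends on the length used.

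As shares of the 9 detected members per kb, the JUN family held 83.7%, 74.3% and 83.6% across WT1 to WT3 and 89.3%, 65.9% and 80.6% across KO1 to KO3. Jun alone held 21.4%, 12.1% and 28.1% in WT and 32.6%, 3.49% and 25.6% across KO1 to KO3. The FOS family held 0.726% to 1.61% in every line, so JUN RNA exceeded FOS RNA throughout. Batf held 32.5% in KO2 and 9.55% in KO1, with 14.8% to 22.8% in WT, and in KO2, as in WT2, it was second to Jund. These shares use the longest transcript, and with the median length Batf held 34.2% and Jund 33.9% in KO2. A Jund length above the 1668 bases used would lower its share in every line.

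**Figure D4:**
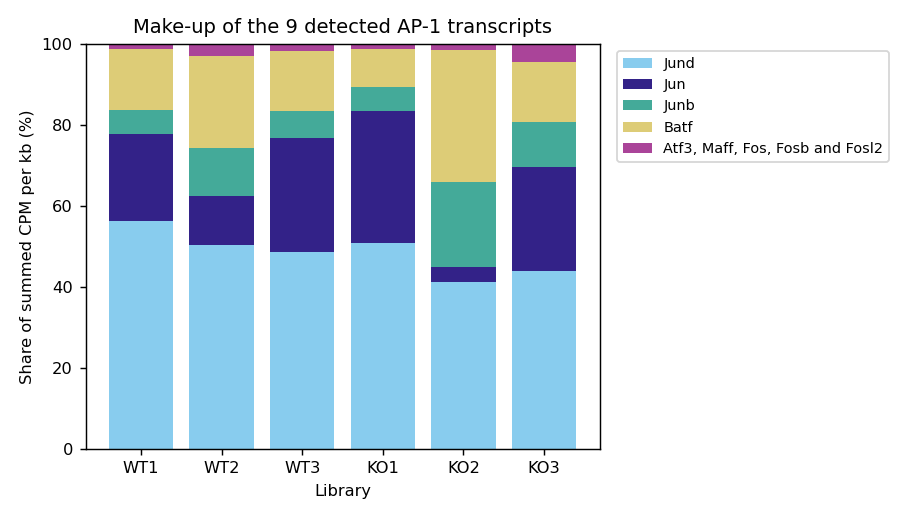
Shares of Jund, Jun, Junb and Batf, and of the other 5 genes together, in the summed CPM per kb of the 9 detected members, in percent, as 1 stacked bar per library. With the longest transcript as the length (1668 bases for Jund), Jund takes the largest share in each bar. In KO2 the share of Jun narrows to 3.49% while those of Junb and Batf widen to 21.1% and 32.5%. With the median length Batf takes the largest share in KO2.

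Genes that act with, upstream or downstream of AP-1 were read from 7 lists. By edgeR 0 of their tested genes passed the adjusted threshold, beside 0% of all tested genes. DESeq2 called 3 list genes, beside 1.94% of genes: Bach2 of 19 other bZIP genes, and Mapk8ip3 and Mapkapk2 of 20 cascade genes. It called no gene of the other lists. At an unadjusted edgeR p under 0.05, 474 of all 10896 tested genes were higher in KO and 556 lower, 9.45% in either direction. The counts given for each list below are to be read beside these.

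Among other bZIP factors, which can share partners or sites with AP-1, 19 of 25 were tested, with 1 higher and 2 lower in KO at an unadjusted edgeR p under 0.05. Their median log2 fold change was 0.11. Bach2, a B cell repressor that pairs with small MAF proteins, had a WT mean of 102 ± 8.13 and a KO mean of 166 ± 30.0 CPM (SD, n = 3), a log2 fold change of 0.70 ± 0.15 (SE). Its adjusted p was 0.479 by edgeR and 0.0057 by DESeq2. Its relative Bach1 was at 66.6 ± 3.43 and 53.3 ± 7.22 CPM (edgeR adjusted p = 0.521), and the CREB relative Atf1 at 65.9 ± 1.36 and 56.0 ± 3.19 CPM (adjusted p = 0.491). Mafk, a small MAF like Maff, had a log2 fold change of -0.27. KO3 was the highest library for 9 of the 19, against 22.9% of all tested genes, and the lowest for 3, against 22.6%.

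Of the 22 JNK, p38 and ERK cascade genes, whose kinases activate AP-1 proteins and their genes, 20 were tested, with 2 higher and 2 lower at an unadjusted p under 0.05 and a median of -0.09. Mapk8ip3, a JNK scaffold, was at 79.9 ± 4.64 and 96.7 ± 4.08 CPM in WT and KO (DESeq2 adjusted p = 0.0449, edgeR 0.479). Mapkapk2, the kinase downstream of p38, was at 257 ± 7.11 and 222 ± 6.80 CPM (DESeq2 adjusted p = 0.0416). Mapk9, which encodes JNK2, was at 47.9 ± 1.10 and 54.6 ± 2.43 CPM, with a log2 fold change of 0.19 ± 0.07 (SE), and Map2k2, which encodes MEK2, had -0.23 ± 0.06. Mapk8, which encodes JNK1 and is named after its values were seen, was at 46.6 to 59.3 CPM in all lines, and KO2 was the lowest.

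All 10 SRF and cofactor genes were tested, with 1 higher and 2 lower at an unadjusted p under 0.05 and a median of 0.09. SRF and its ternary complex partners act on Fos and Egr1 through serum response elements, and Creb1 and the Crtc coactivators through cAMP response elements. Elk3 had a log2 fold change of -0.40 ± 0.12 (SE, edgeR adjusted p = 0.482), Srf -0.26 ± 0.09, Elk4 0.42 ± 0.15 and Crtc1, a CREB coactivator, -0.20. Of the ternary complex factors, Elk3 and Elk4 thus had fold changes of opposite sign. Elk1, named after its values were seen, had 0.13.

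Of 33 other immediate early genes 23 were tested, with 0 higher and 1 lower at an unadjusted p under 0.05 and a median of 0.25. Nfkbiz, an inducible NF-kB cofactor, was the 1 lower, with a WT mean of 11.3 ± 1.28 and a KO mean of 6.68 ± 1.50 CPM (log2 fold change -0.75 ± 0.23, edgeR adjusted p = 0.482). Egr1 was at 11.5, 13.7 and 11.8 CPM across WT1 to WT3 and at 17.0, 17.2 and 56.4 CPM across KO1 to KO3. Each KO line was above each WT line, and KO3 was far above the other 2 (log2 fold change 1.29 ± 0.52, edgeR adjusted p = 0.529), and without KO3 the log2 fold change was 0.47. Fos and Egr1, which share upstream signals, thus had fold changes of opposite sign. The phosphatase genes Dusp1 and Dusp2 had log2 fold changes of -0.47 and -0.39.

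KO3 was the highest library for 7 of the 23 tested immediate early genes, against 22.9% of all tested genes. It was the lowest for 8, against 22.6%, so KO3 stood at both ends of this list. Named after their values were seen, 3 genes of these lists were highest in KO3, as were Fosl2, Atf3 and Maff. Nr4a1, an immediate early nuclear receptor, was at 13.4 CPM there and at 0.205 to 1.28 CPM elsewhere. Ier2 was at 67.6 CPM, against 37.8 to 49.3, and the bZIP gene Cebpg at 93.7 CPM, against 25.8 to 32.1. Jdp2, a repressor that pairs with JUN proteins, was instead highest in KO2, at 50.1 CPM, followed by 12.2 CPM in WT2 and 1.26 to 6.13 CPM in the other 4.

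All 15 genes that act on the stability or modification of AP-1 proteins were tested, with 1 higher and 1 lower at an unadjusted p under 0.05 and a median of 0.00. Itch, a ubiquitin ligase for JUN proteins, had a log2 fold change of 0.31 ± 0.12 (SE), and the kinase gene Gsk3a had -0.10.

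Of 24 genes described elsewhere as AP-1 targets 16 were tested, with 0 higher and 1 lower at an unadjusted p under 0.05 and a median of -0.05. Spp1, which encodes osteopontin, was the 1 lower, with a WT mean of 13.8 ± 5.03 and a KO mean of 7.18 ± 1.11 CPM (log2 fold change -0.94 ± 0.32). Cd69, an early activation antigen, was at 55.5 to 61.1 CPM in WT and at 53.9, 203 and 121 CPM across KO1 to KO3. Bcl2l11, which encodes the death factor BIM, had a log2 fold change of -0.48, and Cd44 had 0.22. Vegfa and Ccnd1 are named after their values were seen. Ccnd1, a D-type cyclin gene, was at 414 to 445 CPM in WT and at 335, 51.0 and 365 CPM across KO1 to KO3 (edgeR adjusted p = 0.741). It was lowest in KO2, the line with the lowest Jun, and KO2 was the lowest library for 33.6% of tested genes. Elsewhere Ccnd1 did not follow Jun. KO1, with the highest Jun, had less Ccnd1 than any WT line, and WT2, with the lowest Jun in WT, had 422 CPM. Vegfa was at 100.2 CPM in KO2 and 337 CPM in KO3, against 158 to 176 CPM in the other 4.

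Of 10 factors that act with Batf or Irf4 in lymphocytes 8 were tested, with 0 at an unadjusted p under 0.05 and a median of 0.08. Irf8, a partner of Batf, was at 26.5, 87.5 and 39.1 CPM across WT1 to WT3 and at 57.7, 282 and 61.0 CPM across KO1 to KO3. It was highest in KO2 and next in WT2, as was Batf. KO2 was the highest library for 4 of the 8, against 31% of tested genes, and the lowest for 3, against 33.6%. Irf4 and Spib, named after their values were seen, did not share this order. Irf4 was at 110, 121 and 78.7 CPM across WT1 to WT3 and at 57.8, 103 and 129 CPM across KO1 to KO3. Spib was highest in KO1 (180 CPM) and lowest in KO2 (28.1 CPM). Stat3, Bcl6 and Ikzf1 had log2 fold changes of 0.51, -0.70 and 0.21, and without KO2 these were 0.15, -0.36 and -0.029.

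**Figure D5:**
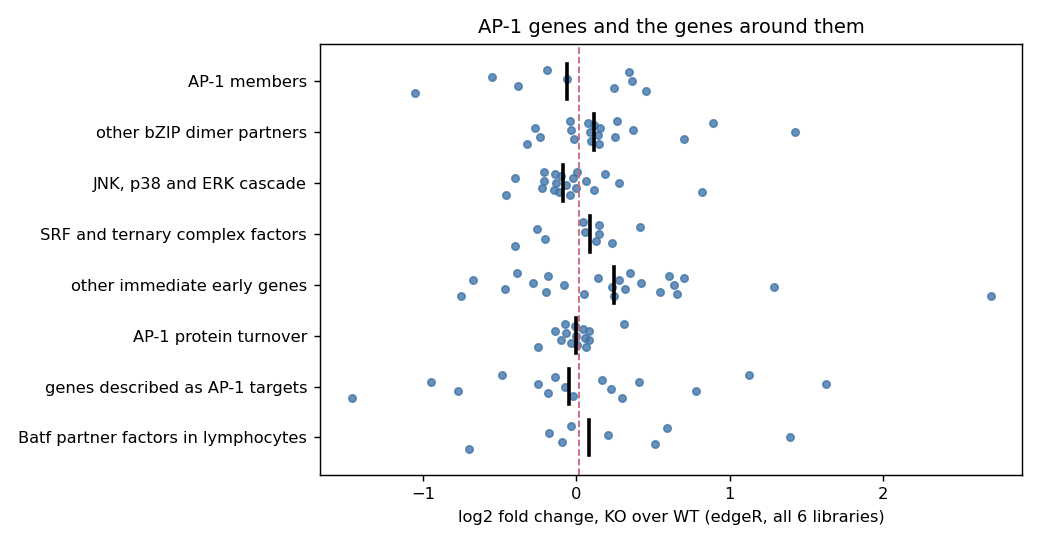
Fitted log2 fold change, KO over WT, of each tested gene of the AP-1 family and of the 7 lists, 1 row per list, with a black bar at the list's median and a dashed line at the median of all tested genes (0.01). Every list lies on both sides of 0, and the medians run from -0.09 (JNK, p38 and ERK cascade) to 0.25 (other immediate early genes).

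The genes most like Fos and Jun were sought among 2164 variable genes by Pearson's r of log2 levels over the 6 libraries, as a description. For Fos they were Nfkbiz (r = 0.98), Prr5 (0.97), Ctse (0.97), Tmprss4 (0.96) and Serpinf1 (0.95). For Jun they were Spsb4, Rdh10, AW554918, C030037D09Rik and Wdfy2, each with r = 0.99. Rdh10, a retinol dehydrogenase gene, was at 7.68 CPM in KO2, 66.8 in WT2 and 196 to 385 CPM in the other 4, which was a wider range than that of Jun. All these values rest on 6 libraries, of which KO2 stood apart, and what the genes share was not tested.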

How the data were processed

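RNA of 6 cell lines was made into TruSeq libraries and sequenced, as the labels' protocols record. The authors deposited 1 table of raw read counts per gene symbol with no normalization, and Trim Galore, STAR and DESeq2 were used on the GRCm38 build, per the submitters' processing notes. The sources used here give no versions, counting program, annotation or strand setting, so overlapping or antisense genes could share reads.

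Counts were scaled by TMM, kept by filterByExpr (minimum count 10) and tested with edgeR 4.0.16 (R 4.3.3) by a quasi-likelihood F test over all 6 libraries, without covariates, two-sided. P-values were Benjamini-Hochberg adjusted over 10896 rows, with 0.05 as the threshold. DESeq2 1.42.0, RLE factors, no filter, the replicate block, each library left out, and WT2 and KO2 left out were alternatives; DESeq2 without KO2, and without both, were added after seeing the data. Totals of 17859519 to 24108563 counts set the precision of low genes; binomial intervals and 3-count limits cover counting error only. For correlations, a prior count of 2 was added before taking log2 of the CPM. Transcript lengths came from the GENCODE annotation of GRCm38, and locations and upstream windows of 250 bases from RefSeq, matched for 10 of 10 members.

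The members, lists and tests were chosen with earlier results of these data known. Named genes were Cdk6, the members, up to 4 per list with the smallest unadjusted p, and the 5 most like Fos and Jun (mean log2 CPM and range of at least 1); others are said to be chosen later. Some genes that the rule names in 1 list are not reported here. Of the 149 list genes, 148 matched by symbol and 1 by synonym. Deviations from the group means correlated at 0.33, 0.64 and 0.46 between same-numbered WT and KO libraries, each above the 0.1 set beforehand as the criterion. The replicate number was therefore fitted as a block, but only as an alternative. The main fit and its p-values take no account of a pairing. Differently numbered pairs reached 0.41 (WT1 and KO3) and 0.36 (WT3 and KO1), so lines 1 and 3 are not told apart by this check, and the labels do not say what a number shares.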

Additional observations from a re-analysis of the deposited data

How the results depend on the processing

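edgeR called 0 genes, 0 members and 0 list genes in each setting run, the replicate block among them (0 genes called; 985 with an unadjusted p under 0.05, against 1030 without it), and the block changed no call past the adjusted threshold. DESeq2 called 218 genes, 684 without KO2 and 340 without WT2 and KO2, with 1 member (Batf) without KO2, and 3 list genes over all libraries. Members with all KO below all WT numbered 1 to 2 when a library was left out and 2 without WT2 and KO2 (Fos and Batf). Signs depended on single libraries, and the cause was not tested. With each library left out in turn, log2 fold changes ran from -0.85 to 0.31 for Jun, -0.17 to 0.77 for Junb, -0.74 to 0.23 for Batf, -0.19 to 0.60 for Fosl2, -1.25 to 1.36 for Atf3, -0.34 to 0.66 for Maff, -0.029 to 0.34 for Ikzf1 and -0.22 to 0.31 for Cdk6. Fos stayed between -1.19 and -0.80, Jund between -0.55 and -0.22, and Fosb between -0.94 and -0.10. Among list genes, Elk4 was at 0.25 and Irf8 at 0.23 without KO2, Mafk at -0.15 without KO3, Crtc1 at -0.14 without KO2 or KO3, Cd44 at 0.12 without WT2, and Bcl2l11 at -0.29 without WT1. Without WT2 and KO2, Cdk6 was at -0.24, Fosb at 0.20 and Jun at 0.020 (0.019 by DESeq2, which also gave 0.20 for Fosb). DESeq2 without KO2 gave 0.31 for Jun and -0.18 for Junb, and the replicate block gave -0.59 for Atf3.

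List medians ran from -0.14 to -0.012 (JNK, p38 and ERK), -0.074 to 0.17 (SRF), -0.16 to 0.30 (immediate early), -0.024 to 0.047 (turnover), -0.19 to 0.20 (AP-1 targets), -0.05 to 0.26 (other bZIP) and 0.02 to 0.17 (Batf partners) with a library left out. Without WT2 and KO2, SRF came to -0.050 and immediate early genes to -0.092. With the median transcript length, Fos was at 1.14, Fosl2 at 1.72 and Junb at 26.4 CPM per kb. Depth limits the low genes, such as Fos with 8 to 31 counts per library and Atf3 with 0 to 110.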
